A study of Mus musculus with 42 samples.

Results

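Antioxidant enzymes and genes of the NRF2 pathway were followed in RNA sequencing of mouse brain. The 35 genes were taken from a list of antioxidant enzymes and NRF2 pathway genes, and each symbol matched 1 of the 54232 Ensembl genes in the deposited counts. All 35 passed the filter on low counts in every fit. The series held 42 libraries, 20 labelled cerebellum and 22 labelled hippocampus, in 8 groups. Mice ate normal chow with 11% fat (control) or a western diet with 42% fat for 12 weeks. Under each diet and region label, 1 group carried a transgene for NaKtide, a peptide derived from the Na,K-ATPase that blocks signalling through the pump and the kinase Src, and its expression was induced with doxycycline at 300 mg/kg in the food. Whether the remaining groups ate doxycycline is not stated, so the peptide and the drug cannot be told apart, and the labels name no promoter or target cell for the transgene. Groups had 5 libraries each, except hippocampus control and hippocampus western NaKtide with 6 each. Nothing in the labels states that replicates came from separate animals, so p-values measure the spread between libraries, which may be technical.

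Superoxide dismutases turn superoxide into hydrogen peroxide, which catalase, glutathione peroxidases and peroxiredoxins remove. Glutathione and thioredoxin supply electrons to the glutathione peroxidases and peroxiredoxins, and their own reductases recharge them with NADPH. NRF2 (Nfe2l2) is a transcription factor held low by KEAP1 and, when released under oxidative stress, binds antioxidant response elements at genes such as Nqo1, Hmox1, Srxn1, Gclm and Slc7a11. In the brain much of this response is known from astrocytes.

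The design text of the series speaks of liver and adipose tissue and of 60 samples, so what each library is rests on its own label. Marker genes bore these labels out only in part. Gabra6, which granule cells of the cerebellum express, was below 1 CPM (counts scaled to a common library size) in 14 of the 20 cerebellum-labelled libraries and reached 10 CPM in 3 of them and in 1 library labelled hippocampus. Summed markers of pyramidal and cortical neurons had group medians of 1235 to 4556 CPM in cerebellum groups and 2938 to 6192 CPM in hippocampus groups. For dentate granule cell markers these medians were 78.8 to 104 CPM and 85.7 to 314 CPM. Striatal neuron markers reached 5355 CPM in cerebellum control NaKtide and 5258 CPM in hippocampus western NaKtide. Xist, made from an inactive X chromosome, was present in 4 libraries. Library totals ran from 4669374 to 9521002 counts, and mitochondrial protein genes took 4.68% to 15.6% of them. In tissue of mixed cells, fewer cells of a type and less RNA per cell cannot be told apart.

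To show the kind of site that NRF2 is known to bind, promoters were searched for TGACNNNGC, 1 form of the core of the antioxidant response element. Other forms were not searched, so sites of another form are neither counted nor marked below. Both strands were searched from 250 bases before to 50 bases after each listed start of a gene. RefSeq promoters (GRCm38.p6) were matched for 29 of the 35 genes, and Sod3, Gclc, Gsr, Prdx6, Gsta4 and Hmox1 were not matched. The core was found in 8 of the 29 (27.6%), against 14.0% of 27025 genes. A gene was counted when any of its promoters held the core, so genes with several promoters had more chances. The 8 were Nfe2l2, Srxn1, Gclm, Prdx1, Mgst1, Txnrd1, Sod1 and G6pdx. Of these, 3 are shown because they differed in response to NaKtide on the western diet in hippocampus: Sod1 (chr16:90220512-90220811, plus strand) rose, Gclm (chr3:122245307-122245606, plus strand) fell, and Srxn1 (chr2:152105274-152105573, plus strand) was not called. The fall of Gclm was not seen with trends by transcript length and GC content taken out (log2 change 0.026, adjusted p = 0.909, edgeR). Capitals mark the core, which lies on the opposite strand in all 3.
Sod1: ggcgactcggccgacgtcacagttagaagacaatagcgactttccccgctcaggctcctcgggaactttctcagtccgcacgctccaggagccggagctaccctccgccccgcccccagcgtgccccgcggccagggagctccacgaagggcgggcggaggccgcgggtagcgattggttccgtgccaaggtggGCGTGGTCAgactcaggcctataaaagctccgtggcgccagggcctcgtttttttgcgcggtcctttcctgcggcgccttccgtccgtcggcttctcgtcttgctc
Gclm: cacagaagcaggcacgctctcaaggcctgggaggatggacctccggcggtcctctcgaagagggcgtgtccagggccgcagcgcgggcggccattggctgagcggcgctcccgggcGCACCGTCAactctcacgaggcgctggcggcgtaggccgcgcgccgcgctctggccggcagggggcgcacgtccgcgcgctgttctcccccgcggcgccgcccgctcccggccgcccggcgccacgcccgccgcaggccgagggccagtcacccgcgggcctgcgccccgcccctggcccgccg
Srxn1: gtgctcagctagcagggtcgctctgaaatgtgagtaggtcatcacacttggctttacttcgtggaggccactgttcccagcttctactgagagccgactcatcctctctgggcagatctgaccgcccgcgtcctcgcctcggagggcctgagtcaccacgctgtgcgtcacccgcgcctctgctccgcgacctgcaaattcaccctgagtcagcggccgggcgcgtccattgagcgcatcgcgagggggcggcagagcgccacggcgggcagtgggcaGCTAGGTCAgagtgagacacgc
A match is a description of the letters, not evidence of binding.

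Levels were compared between genes as the authors' FPKM, which divides by gene length. Gstp1, a glutathione transferase, had the highest median over the 42 libraries (267 FPKM), followed by Gpx4, which reduces lipid peroxides (244 FPKM), Gstm1 (177 FPKM), the peroxiredoxin Prdx5 (127 FPKM) and the cytosolic dismutase Sod1 (81.2 FPKM). The inducible heme oxygenase Hmox1 was lowest (2.45 FPKM), with Gss (3.14 FPKM), Nfe2l2 (3.44 FPKM) and Nqo1 (3.51 FPKM) just above it. The spread between libraries of a group also differed by gene. Its SD on the log2 CPM scale was 1.09 for Gpx3, a secreted peroxidase, 0.87 for Gpx8, 0.71 for Mgst1 and 0.53 for Nqo1. It was 0.14 for Keap1, 0.15 for Sod2, 0.17 for Srxn1 and 0.17 for Txn2.

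**Figure D1:**
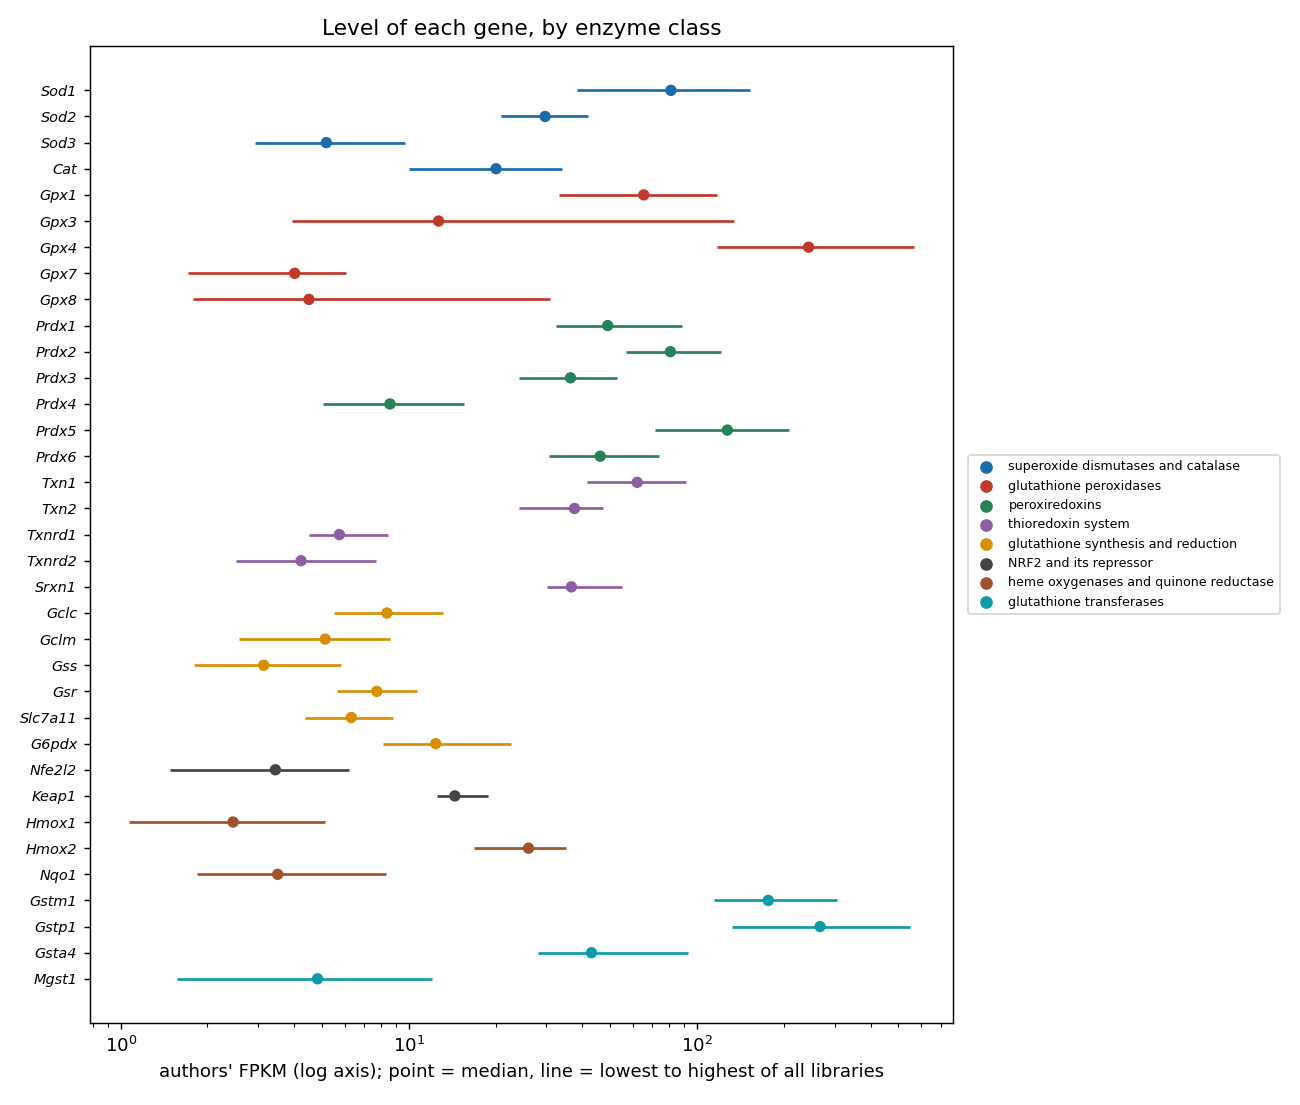
Median (point) and range (line) of the authors' FPKM over the 42 libraries for each gene, on a log axis, coloured by enzyme class. Gstp1 and Gpx4 have the highest medians, 267 and 244 FPKM, and Gpx3 has a wide range, 3.92 to 135 FPKM.

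The response to NaKtide under the western diet came first, in libraries labelled hippocampus. Of the 35 genes, 9 were higher and 1 lower (28.6% called), by edgeR's quasi-likelihood test with Benjamini-Hochberg adjusted p under 0.05 over 16442 genes. Over all genes 33.7% were called, 17.4% higher and 16.3% lower, so the share among the antioxidant genes was no larger than the background. Their median log2 fold change was 0.32, against 0.05 over all genes. The median was 0.13 with trends by transcript length and GC content taken out, and 0.17 with 2 surrogate variables. The genes called higher were Sod1, Sod3, Gpx1, Gpx4, Prdx2, Prdx6, Txn2, Gstm1 and Gstp1, and the gene called lower was Gclm. Of the 35, 17 had an unadjusted p under 0.05, against 44.9% of all genes. Groups did not overlap for 5 of the 35, against 13.2% of all genes. Genes with shorter transcripts had more positive fold changes here. Each called gene of the 35 is therefore also given with trends by transcript length and GC content taken out (the trend-adjusted value).

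**Figure D2:**
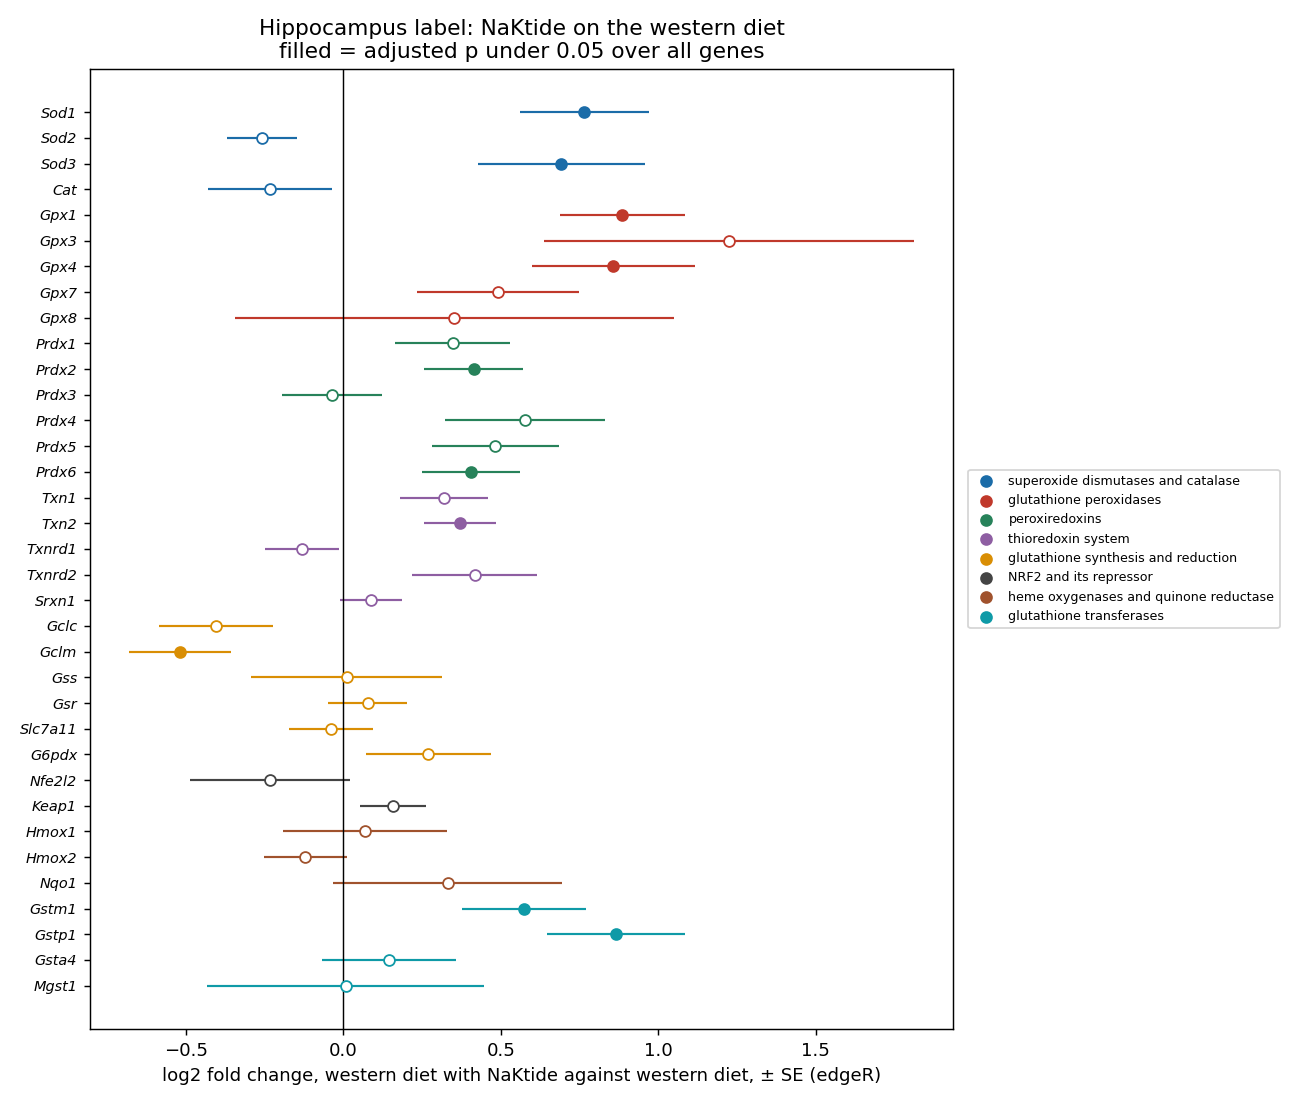
Log2 fold change ± SE of each gene for NaKtide on the western diet, hippocampus label, coloured by enzyme class, with filled points where the adjusted p was under 0.05. Gpx1 (0.89) and Gstp1 (0.87) lie to the right and Gclm (-0.52) to the left.

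Among the dismutases and catalase, 2 of 4 were called. Sod1 stood at 247, 182, 165, 151 and 307 CPM in the 5 western libraries and at 266 to 408 CPM (median 368) in the 6 western NaKtide libraries. All 6 were above the western mean, and the groups overlapped only in their ends. The log2 fold change was 0.77 ± 0.20 (SE, adjusted p = 0.00868, edgeR), and the trend-adjusted value was 0.93 (adjusted p = 0.0122). Sod3, the extracellular dismutase, was 17.9, 14.1, 12.9, 10.9 and 19.9 CPM against 18.8 to 35.9 CPM (median 23.5), again with overlapping ends, and rose by 0.69 ± 0.27 (adjusted p = 0.0484, edgeR), with a trend-adjusted value of 0.67 that did not pass (adjusted p = 0.0721). The mitochondrial Sod2 had a log2 difference of -0.26 (adjusted p = 0.0740, edgeR) and catalase (Cat) one of -0.23, neither of which passed the test. Sod2 was called lower with DESeq2, and both were called lower with 2 surrogate variables.

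Of the 5 glutathione peroxidases, which reduce peroxides with glutathione, 2 were called higher and all 5 differences were positive. Gpx1, the main cytosolic form (chromosome 9, 108338903 to 108340343, GRCm38), was 79.8, 56.4, 62.5, 47.6 and 80.1 CPM on the western diet. With NaKtide it was 94.8 to 150 CPM (median 118). Every NaKtide library was above every western library, and the log2 fold change was 0.89 ± 0.20 (adjusted p = 0.00405, edgeR). The trend-adjusted value was 0.37 and did not pass (adjusted p = 0.0990, edgeR). Gpx4 was 324, 201, 234, 228 and 371 CPM against 370 to 783 CPM (median 425), and the groups overlapped by a small margin. It rose by 0.86 ± 0.26 (adjusted p = 0.0160, edgeR), and the trend-adjusted value, 0.29, did not pass (adjusted p = 0.265). Gpx3 had a larger difference, 1.22, with an SE of 0.59, and it did not pass (adjusted p = 0.110, edgeR). Gpx7 (0.49) and Gpx8 (0.35) did not pass either.

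Peroxiredoxins reduce peroxides through a cysteine, which thioredoxin restores in most of them, and 2 of 6 were called. Prdx2 was 245, 172, 174, 177 and 239 CPM against 204 to 367 CPM (median 258) and rose by 0.41 ± 0.16 (adjusted p = 0.0463, edgeR), with overlap. Prdx6 was 199, 166, 193, 173 and 198 CPM against 218 to 304 CPM (median 241) and rose by 0.41 ± 0.15 (adjusted p = 0.0467, edgeR), with no overlap. Both lay close to the threshold, and neither trend-adjusted value passed (0.20 with adjusted p = 0.175 and 0.37 with adjusted p = 0.0558, edgeR). Prdx1, Prdx4 and Prdx5 had differences of 0.35, 0.58 and 0.48, and the mitochondrial Prdx3 one of -0.04; none of these passed.

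In the thioredoxin system 1 of 5 was called. Txn2, the mitochondrial thioredoxin, was 143, 101, 120, 117 and 132 CPM against 145 to 172 CPM (median 159). Every NaKtide library was above every western one, and the rise was 0.37 ± 0.11 (adjusted p = 0.0171, edgeR). The trend-adjusted value was 0.12 and did not pass (adjusted p = 0.298, edgeR). Txn1 (0.32), the reductases Txnrd2 (0.42) and Txnrd1 (-0.13), and Srxn1 (0.09), which repairs over-oxidised peroxiredoxins, did not pass.

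Glutathione synthesis and reduction held the gene that fell. Gclm, the modifier subunit of the enzyme that limits glutathione synthesis (chromosome 3, 122245557 to 122270732, GRCm38), was 35.0, 40.8, 34.0, 42.0 and 39.2 CPM on the western diet and 16.5 to 32.4 CPM (median 28.6) with NaKtide. Groups did not overlap, and the change was -0.52 ± 0.16 (adjusted p = 0.0191, edgeR). The trend-adjusted value was 0.03, so the fall was not seen there (adjusted p = 0.909, edgeR). Its catalytic partner Gclc had a difference of -0.40 (adjusted p = 0.0856, edgeR). Gss (0.01), the reductase Gsr (0.08), the cystine carrier Slc7a11 (-0.04) and G6pdx (0.27), which makes NADPH, did not pass.

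Neither NRF2 nor its repressor was called, with -0.23 for Nfe2l2 and 0.16 for Keap1. None of the 3 heme oxygenases and quinone reductase passed, with 0.07 for Hmox1, -0.12 for Hmox2 and 0.33 for Nqo1. Among the 4 glutathione transferases, 2 were called. Gstp1 was 156, 99.8, 109, 112 and 176 CPM against 181 to 310 CPM (median 243), with no overlap, and rose by 0.87 ± 0.22 (adjusted p = 0.00684, edgeR), with a trend-adjusted value of 0.30 that did not pass (adjusted p = 0.0739). Gstm1 was 251, 169, 205, 187 and 283 CPM against 281 to 398 CPM (median 315), with overlapping ends, and rose by 0.57 ± 0.20 (adjusted p = 0.0302, edgeR), with a trend-adjusted value of 0.20 that did not pass (adjusted p = 0.320). Gsta4 (0.14) and Mgst1 (0.01) did not pass. Gstp1 and Gstm1 have closely related copies in the genome, between which the counting could have split reads.

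**Figure D3:**
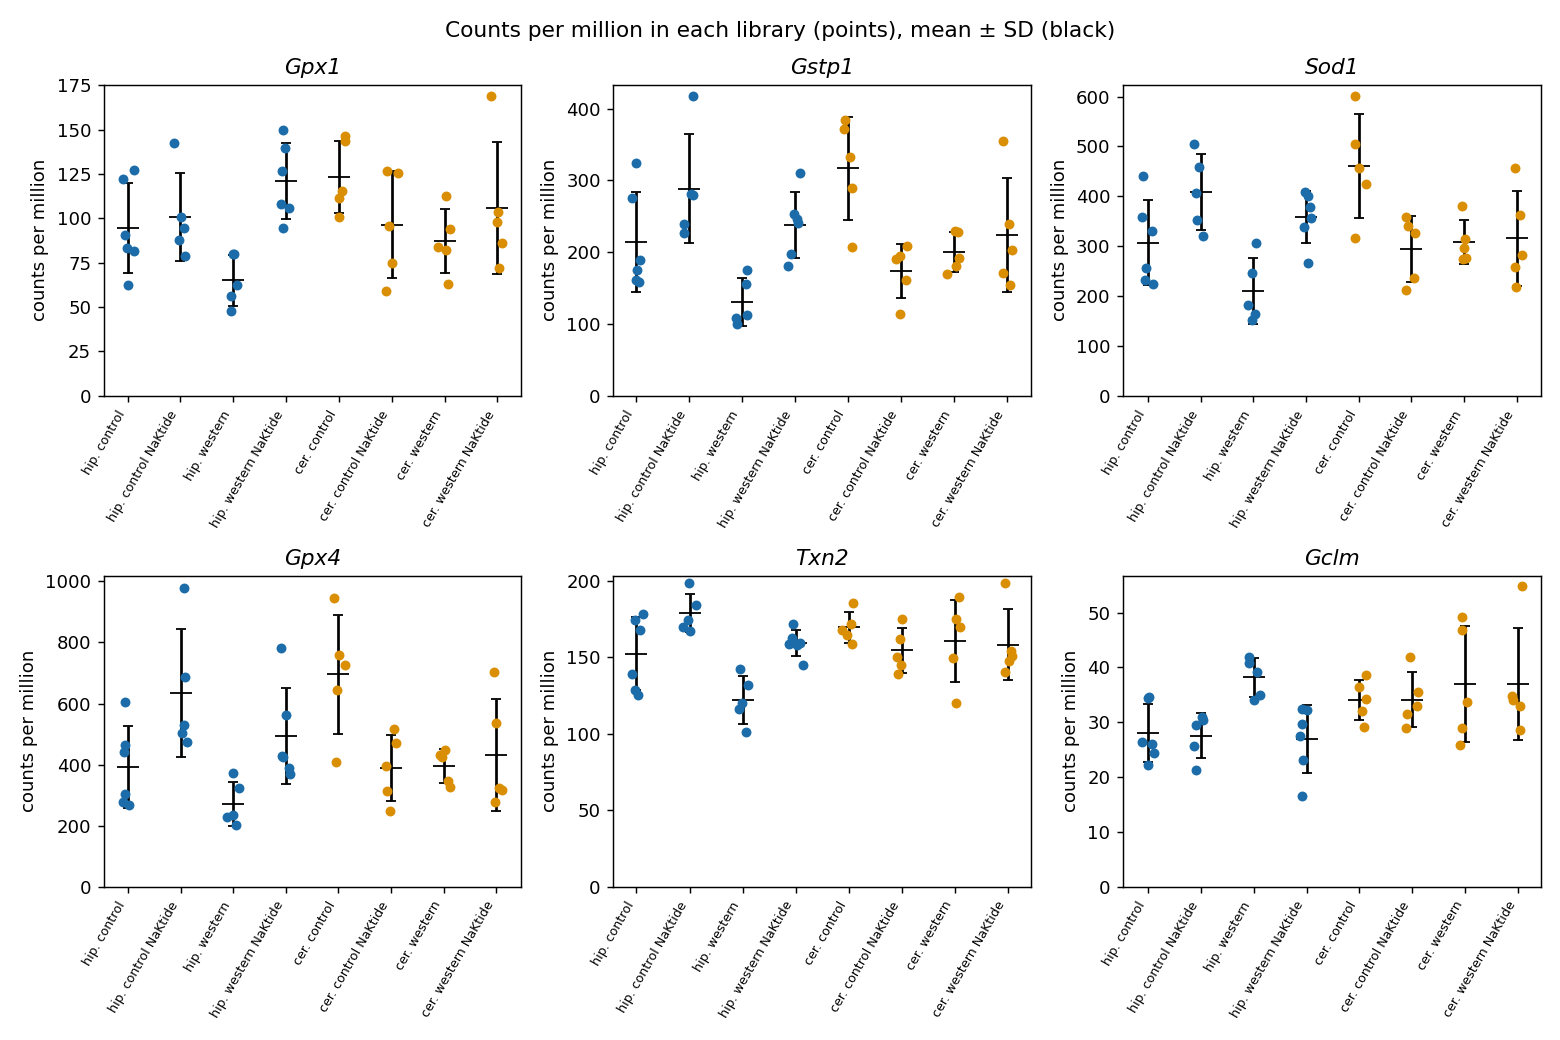
CPM in each library (points) with mean ± SD (black) for 6 genes in the 8 groups, hippocampus in blue and cerebellum in orange. For Gpx1, Gstp1 and Txn2 every hippocampus western NaKtide library lies above every hippocampus western library, and for Gclm every one lies below.

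Across genes, the correlation of the fold change with log length was -0.44 over 16420 genes, which are not independent replicates. The longest transcript of the 35 genes had a median of 2049 bases, against 3113.5 over all genes, and the 5279 genes of 1289 to 3066 bases, the middle range of the 35, had a median log2 fold change of 0.19. With trends by length and GC content taken out, 3 genes were called higher (Sod1, Prdx1 and Slc7a11) against 18.9% of all genes called in either direction. Sod1 alone of the 10 remained called. Length was that of the longest annotated transcript, 3970 bases for Sod1 and 9223 bases for Slc7a11. How far these calls depend on the lengths assigned was not tested. In the fit without this adjustment, 33.7% of all genes were called, 17.4% higher and 16.3% lower, which is the background for the markers. Among 16 lists of cell type markers, 9 held a called gene there. Of 9 astrocyte markers 4 were lower, with sums of 3098 to 4666 CPM on the western diet and 2719 to 4042 CPM with NaKtide. Of 10 microglia markers 6 were higher, with sums of 338 to 540 and 533 to 754 CPM. Of 5 blood cell markers 4 were higher, with sums of 240 to 1245 and 737 to 3462 CPM. Of 7 dentate granule cell markers 4 were lower, with sums of 150 to 529 and 69.4 to 174 CPM. Of 9 striatal neuron markers 5 were higher, with sums of 208 to 576 and 270 to 5258 CPM. Of 8 tested markers of cerebellar granule and Purkinje cells 4 were lower, with sums of 227 to 824 and 207 to 592 CPM, and of 8 markers of pyramidal and cortical neurons 2 were lower, with sums of 2692 to 6822 and 935 to 7211 CPM. The oligodendrocyte and hypothalamic lists had 1 higher gene each, and the other 7 lists had none called. No marker of the 9 lists was at 0 throughout either group. Mitochondrial protein genes took 4.85% to 7.30% of counts on the western diet and 5.60% to 15.6% with NaKtide. Their part in the result was not tested.

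The count of called genes depended on single libraries. It was 4 without hippocampus western 2 (22.9% of all genes called), 6 without western 3 (24.4%), 5 without western 4 (22.9%), 6 without western NaKtide 1 (26.8%) and 6 without western NaKtide 2 (32.2%). It was 14 without western 5 (36.7%). Without the 4 libraries with Xist it was 9, against 33.8% of all genes. Western 4 was the only hippocampus library among those with Gabra6, so leaving these out likewise gave 5 genes and 22.9%. With no filter on low counts it was 5, against 14.0%. Other settings gave 10 with DESeq2's size factors (33.4% of all genes), 11 with DESeq2 (36.8%), 9 with the compared groups only (29.6%), 8 with the replicate block (31.8%), 14 with 2 surrogate variables (38.5%) and 9 with hippocampus control 5 and 6 summed (33.0%).

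In a wider list of 56 genes of the same pathway, 51 were tested, 9 were higher and 3 lower (23.5%), a smaller share than the 33.7% of all genes. Ftl1, a ferritin subunit that stores iron, rose by 0.92 ± 0.19 (adjusted p = 0.00280, edgeR) and Ccs, the copper chaperone of Sod1, by 0.81 ± 0.21 (adjusted p = 0.00710, edgeR). Blvrb, which reduces biliverdin, rose by 0.93 ± 0.25 (adjusted p = 0.00951, edgeR) and Selenow by 0.81 ± 0.20 (adjusted p = 0.00585, edgeR). The ubiquitin ligase scaffold Cul3, which acts with KEAP1, had a log2 change of -0.81 ± 0.18 (adjusted p = 0.00402, edgeR), and the repressor Bach1 one of -0.98 ± 0.35 (adjusted p = 0.0368, edgeR). These 6 were picked from the 12 after their values were seen. All 6 values are from the fit without the length and GC adjustment, in which genes with shorter transcripts had more positive fold changes. Their trend-adjusted values are not given here, so how far they depend on transcript length is not shown.

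The same treatment on the control diet, and the diet itself, were then compared in libraries labelled hippocampus. For NaKtide on the control diet edgeR called 0 of the 35 genes and 0.0% of all genes, with 7 genes at an unadjusted p under 0.05 (16.5% of all genes) and 0 called by DESeq2. The smallest p belonged to Gpx4, at 473, 528, 686, 980 and 503 CPM against 268 to 604 CPM (median 371), a difference of 0.70 ± 0.25 (adjusted p = 0.216, edgeR). Prdx6 (0.34) and Txnrd2 (0.42) came next. For the western against the control diet without NaKtide 0 of 35 genes and 0.0% of all genes were called, 7 had an unadjusted p under 0.05 (24.6% of all genes), and DESeq2 called 1, Gstp1, against 5.1% of all genes. The smallest p belonged to Gstp1 (-0.73, adjusted p = 0.0956, edgeR), Txn2 (-0.33) and Gpx1 (-0.55). The western libraries are also the baseline of the NaKtide comparison, so the opposite signs there share these libraries.

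Other libraries changed that count. Without the 4 libraries with Xist, 3 genes were called for the diet (Gclm higher, Gstp1 and Txn2 lower) against 13.4% of all genes. With 2 surrogate variables 7 were called against 18.0%. With NaKtide in both groups, the diet gave 0 of 35 called and 0.0% of all genes, with 0 genes at an unadjusted p under 0.05 (10.7% of all genes) and 0 by DESeq2; the smallest p belonged to Sod2 (-0.23), Txn2 (-0.20) and Gpx8 (-1.07). The interaction of diet and NaKtide gave 0 of 35 and 0.0% of all genes, with 4 at an unadjusted p under 0.05 (14.6% of all genes) and 0 by DESeq2. Its smallest p belonged to Gpx1 (0.79 ± 0.28, adjusted p = 0.215, edgeR), Sod2 (-0.40) and Gpx3 (1.79). The effect of NaKtide is therefore not shown to differ between the diets.

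In libraries labelled cerebellum the antioxidant genes leaned lower with NaKtide on the control diet, with 30 of 35 differences negative, against 48.8% of all genes, and a median of -0.36, against 0.02 over all genes. Fold changes went with log length here too (correlation across 16317 genes 0.36), and 5252 genes of 1289 to 3066 bases had a median of -0.10. With the length and GC trends taken out the median of the 35 was -0.30 and edgeR called 0. None passed edgeR's adjusted threshold (0 of 35, against 0.00612% of all genes), while 17 had an unadjusted p under 0.05, against 29.5% of all genes. DESeq2 called 12 lower, against 5.94% of all genes lower: Cat, Sod1, Gpx3, Gpx4, Gpx8, Prdx1, Prdx4, Txnrd2, Nqo1, Gstm1, Gstp1 and Mgst1. Gstp1 was 289, 384, 371, 333 and 207 CPM on the control diet and 208, 191, 194, 161 and 114 CPM with NaKtide, a difference of -0.87 ± 0.22 (adjusted p = 0.0908, edgeR). The groups met only at the library control 5. Gpx3 was 77.2, 139, 64.2, 244 and 25.6 CPM against 41.6, 12.6, 10.8, 14.4 and 15.6 CPM, a difference of -2.54 ± 0.71 (adjusted p = 0.0908, edgeR). Prdx4, the peroxiredoxin of the endoplasmic reticulum, was 25.2, 27.9, 24.8, 29.4 and 18.0 CPM against 18.7, 14.1, 19.1, 12.8 and 11.6 CPM, a difference of -0.72 ± 0.22 (adjusted p = 0.0908, edgeR). In all 3 genes control 5 was the lowest control library.

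Without control 5, edgeR called 16 of the 35 lower, against 12.7% of all genes, and without western NaKtide 3, which is in neither group but shares the estimate of spread, it called 7 lower, against 5.6%. With 2 surrogate variables the median was -0.01. Oligodendrocyte markers summed to 4563 to 20580 CPM on the control diet and 2066 to 8961 CPM with NaKtide. Blood cell markers summed to 945.5 to 5938 and 344 to 1229 CPM, and pituitary markers to 7.55 to 332 and 2.08 to 28.2 CPM. Some lists had higher median sums with NaKtide. These medians were 1235 and 4556 CPM for pyramidal and cortical neurons, 409 and 800 CPM for striatal neurons, and 78.8 and 101 CPM for dentate granule cells. EdgeR called a marker in 0 of the 16 lists. Mitochondrial protein genes took 8.995% to 9.998% of counts in control 1 to 4, 6.94% in control 5 and 5.04% to 8.85% with NaKtide. The part of these in the result was not tested.

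The other comparisons of this label gave 0 of 35 called by edgeR and by DESeq2. For the western against the control diet without NaKtide 0.00612% of all genes were called and 9 of the 35 had an unadjusted p under 0.05 (19.5% of all genes), led by Txnrd2 (-0.60), Gpx4 (-0.82) and Gstp1 (-0.66). Without control 5, these 3 were called lower, against 2.35% of all genes. When NaKtide was compared under the western diet, no gene at all was called (0.0% of all genes) and 0 of the 35 had an unadjusted p under 0.05 (4.16% of all genes), with Txn1 (0.22), Hmox2 (0.19) and Prdx1 (0.28) first. For the diet with NaKtide 0.0% of all genes were called and 2 of the 35 had an unadjusted p under 0.05 (2.42% of all genes), Prdx1 (0.43) and Hmox2 (0.26), with Gpx3 (1.42) next. For the interaction 0.00612% of all genes were called and 13 of the 35 had an unadjusted p under 0.05 (17.4% of all genes), led by Prdx1 (0.83), Gstp1 (1.03) and Gpx3 (3.05).

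**Figure D4:**
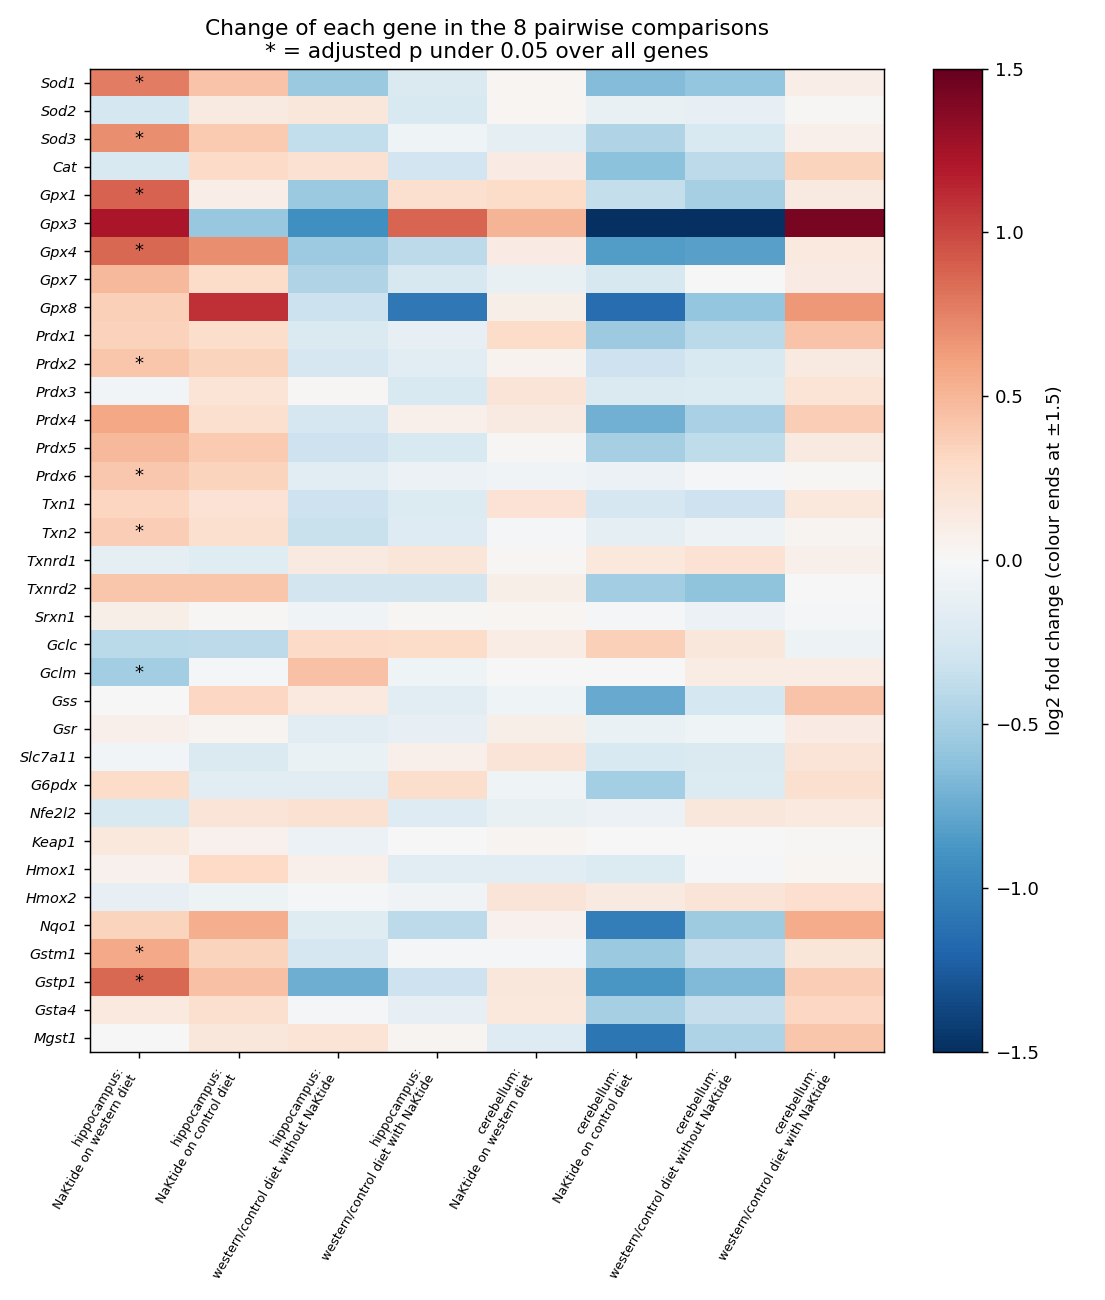
Log2 fold change of the 35 genes (rows) in the 8 pairwise comparisons (columns), red for higher and blue for lower, with the colour ending at 1.5 and stars at an adjusted p under 0.05. Stars appear only for NaKtide on the western diet in hippocampus (10 genes), and 30 of 35 genes are negative for NaKtide on the control diet in cerebellum.

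Between the region labels, 0 of 35 genes differed in the mean of the 4 groups (0.0468% of all genes called), 6 had an unadjusted p under 0.05 (12.8% of all genes) and DESeq2 called 0. The smallest p belonged to Srxn1 (-0.17), Gclm (-0.25) and G6pdx (-0.30). The effect of NaKtide on the western diet differed between labels for 0 of 35 genes, against 8.84% of all genes, with 7 at an unadjusted p under 0.05 (29.7% of all genes) and 0 by DESeq2. Sod1 (0.73 ± 0.29, adjusted p = 0.0923, edgeR), Txn2 (0.40) and Sod3 (0.84) had the smallest p. Without cerebellum western NaKtide 3, 6 genes were called higher (Gpx1, Gstm1, Gstp1, Sod1, Sod3 and Txn2), against 12.6% of all genes. Without hippocampus western 5, 1 gene was called, Sod1, against 13.1%. With 2 surrogate variables, 2 were called lower (Cat and Gclm), against 6.95% of all genes called in either direction. The effect of the diet without NaKtide differed for 0 of 35 genes and 0.0% of all genes, with 2 at an unadjusted p under 0.05, against 5.31% of all genes (Cat at 0.63 and Sod2 at 0.30, with Txn2 at -0.24 next) and 0 by DESeq2.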

How the data were processed

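Build GRCm38 and the tools HISAT2 2.1.0, Trimmomatic 0.38 and DESeq2 1.20.0 are listed in the submitters' processing notes, with the counter and gene models not given in the sources used here. All tests used the deposited raw counts per gene. The FPKM, which the authors derived from the counts with 1 factor per gene and 1 per library, were used only to rank levels. Libraries were made with a stranded kit per the labels' protocols. Symbols were matched through GENCODE M21.

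One model per region label, and one over both for the region comparisons, was fitted in edgeR 4.0.16 under R 4.3.3 (TMM factors, filterByExpr, glmQLFTest), with Benjamini-Hochberg adjusted p under 0.05 over all genes. CPM use TMM factors over all 42 libraries, except for Gabra6, whose CPM is of the library total. The fit was tested on simulated counts with known fold changes, drawn for each gene independently and without differences in tissue content between libraries. The recovery required of it was limited to better expressed genes after the missed genes were seen. The members and lists were chosen with earlier results of these data known. Named genes were all those called, or the 3 smallest p where fewer were called, in each of 13 comparisons. Markers and libraries singled out were chosen after their values were seen. Alternatives were DESeq2 1.42.0, its size factors in edgeR, no filter, the compared groups only, a replicate block, 2 surrogate variables (sva 3.50.0), length and GC offsets, summing or leaving out libraries (Xist above 5 counts, Gabra6 from 10 CPM), and leaving out each library.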

Additional observations from a re-analysis of the deposited data

Results flagged for a closer look

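In 54 sets of values (a named gene in 1 group), 5 held a library apart from the rest, by a gap to the next library that was large against the range of the group. Such a gap arises by chance in some sets too, about 5% of them. Hippocampus western NaKtide 2 stood apart in 3 genes: Sod3 at 35.9 CPM (others 18.8 to 23.7), Gpx8 at 26.6 CPM (others 1.89 to 4.81) and Prdx6 at 304 CPM (others 218 to 247). This library also had 4855 CPM of Ttr, a choroid plexus gene, and the part of such tissue was not tested. Gpx3 was 41.6 CPM in cerebellum control NaKtide 1 (others 10.8 to 15.6). Txnrd2 was 28.2 CPM in hippocampus control 4 (others 13.6 to 18.1).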

How the results depend on the processing

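For NaKtide on the western diet in hippocampus, 10 genes were called, and 10 with DESeq2's size factors, 11 with DESeq2, 9 with the compared groups only, 8 with the replicate block, 14 with 2 surrogate variables, 9 with hippocampus control 5 and 6 summed and 9 without the libraries with Xist. The count was 5 with no filter, 3 with the length and GC trends taken out, 5 without the libraries with Gabra6, and 4 to 14 when each library was left out. Gclm turned from -0.52 to 0.026 on the log2 scale with those trends taken out. For the diet without NaKtide in hippocampus, 0 became 1 with DESeq2, 7 with 2 surrogate variables and 3 without the libraries with Xist. In cerebellum, NaKtide on the control diet gave 12 with DESeq2 and 0 to 16 over the leave-one-out fits, and the diet without NaKtide 0 to 3. The difference of NaKtide on the western diet between labels gave 2 with 2 surrogate variables and 0 to 6 over the leave-one-out fits. The other comparisons gave 0 under each alternative run. The cause of these changes was not tested. Deviations from the group means had low median correlations between same-numbered libraries: -0.109 in hippocampus, -0.0579 in cerebellum and -0.00334 between the labels. Single pairs between the labels ran from -0.617 to 0.58. Tissue content also varied between libraries, so these values cannot tell whether same-numbered libraries share an animal. The replicate block gave 0 in every comparison other than NaKtide on the western diet in hippocampus. Among pairs of libraries within a group, none was closer than hippocampus control 5 with 6 (mean chi-square 2.32 per gene, next pair 7.11). These 2 libraries differed by more than sampling noise, and whether they share a source was not tested.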

Other observations

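The 4 genes with the widest spread between libraries of a group were high in few libraries, picked after their values were seen. Gpx3 was highest in cerebellum control 4 (244 CPM) and cerebellum control 2 (139 CPM), against a median of 19.3 CPM in the libraries outside the top 5. The first of these had 376 CPM of Hcrt, a hypothalamic neuropeptide, and the second 310 CPM of Tph2, an enzyme of serotonin neurons. Gpx8 was highest in hippocampus control NaKtide 4 (32.6 CPM) and hippocampus western NaKtide 2 (26.6 CPM), against a median of 4.04 CPM outside the top 5, and these libraries had 6077 and 4855 CPM of Ttr. Hippocampus western NaKtide 2 was also highest for Mgst1 (24.1 CPM) and second for Nqo1 (12.7 CPM). Whether the content of neighbouring tissue sets these levels was not tested.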
